A study of Homo sapiens with 8 samples.

Results

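The enzymes that write and erase DNA methylation were followed as RNA through the first steps of germ layer formation. The group holds 7 genes: the methyltransferases DNMT1, DNMT3A and DNMT3B, the DNMT1 partner UHRF1, and the dioxygenases TET1, TET2 and TET3. Members were chosen by symbol, as transcripts whose gene name in the combined assembly is 1 of the 7, and each transcript's reads were summed per gene. They are 7 of 20096 named genes with at least 1 read, and 52 of the 96614 assembled transcripts belong to them. Another 5 transcripts are listed under members by position alone, lying in an intron or beyond the gene's end, and were not counted. H1 cells, a long-established line of human embryonic origin, were sequenced as long reads (PacBio Sequel II, which reads whole transcripts) in 4 groups of 2 libraries each. The undifferentiated group (hPSC) was kept on Matrigel in mTeSR1 medium and passaged with Accutase. All 3 layers started from these cells and were collected after 5 days. Endoderm cells received RPMI with GlutaMax, non-essential amino acids, b-mercaptoethanol, FBS, WNT3A and 100 ng/ml Activin A. Mesoderm cells received DMEM/F12 with GlutaMax, non-essential amino acids, b-mercaptoethanol, FBS, 100 ng/ml VEGF, 100 ng/ml BMP4 and 10 ng/ml bFGF, with 100 ng/ml Activin A during the first 24 hours. Ectoderm cells received DMEM/F12 with non-essential amino acids, b-mercaptoethanol, KOSR and 2 µM each of A83-01, PNU-74654 and Dorsomorphin. All libraries come from 1 cell line, and nothing in the labels says that the 2 repeats of a group were separate cultures, so the p-values here measure only the spread between these libraries, which may be technical.

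DNA methylation at CG sites is laid down on unmethylated DNA by DNMT3A and DNMT3B and copied after replication by DNMT1, which UHRF1 brings to half-methylated sites. The TET enzymes oxidise methylcytosine, and TDG then removes oxidised bases during repair. DNMT3B is abundant in pluripotent cells of the early embryo and is known for many splice forms, among them forms without part of the catalytic domain that do not methylate DNA on their own but can bind the active enzymes.

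The clearest differences among the members were in the amount of DNMT3B RNA and in which DNMT3B exons that RNA held, so the DNA of those exon choices is shown first. DNMT3B lies on the plus strand of chromosome 20 (GRCh38, 32762385 to 32809359), and its exons are numbered as in the 23-exon reference transcript ENST00000328111. Exon 21 (32805338 to 32805407) and exon 22 (32806209 to 32806327) together hold 189 coding bases, which is 63 codons, so transcripts without them stay in frame while losing part of the catalytic domain. Exon 10 (32793536 to 32793595) holds 60 bases, or 20 codons. The coding sequences below, read from the GENCODE 29 transcripts, give 20 bases of the exon before, the exons themselves in capitals and 20 bases of the exon after. In the skipped forms the capitals mark the first 20 bases of the exon joined in their place.
DNMT3B exons 21 and 22 included: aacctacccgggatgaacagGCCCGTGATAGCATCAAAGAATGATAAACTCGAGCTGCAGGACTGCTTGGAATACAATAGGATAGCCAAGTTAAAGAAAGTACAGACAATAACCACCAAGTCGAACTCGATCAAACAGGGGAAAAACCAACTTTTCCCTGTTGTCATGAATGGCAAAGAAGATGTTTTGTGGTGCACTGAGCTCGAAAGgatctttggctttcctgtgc
DNMT3B exon 20 to exon 23: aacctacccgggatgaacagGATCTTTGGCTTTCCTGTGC
DNMT3B exon 10 included: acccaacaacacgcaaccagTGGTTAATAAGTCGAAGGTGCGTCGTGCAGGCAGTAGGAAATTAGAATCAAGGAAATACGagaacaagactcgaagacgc
DNMT3B exon 9 to exon 11: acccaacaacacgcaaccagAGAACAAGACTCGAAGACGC

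Library totals ran from 503840 to 562042 counts in hPSC and mesoderm, were 585558 and 586183 in endoderm, and were 967206 and 1180888 in ectoderm. The mean length of the transcript behind a read was 2975 to 3298 nt in hPSC and endoderm, 3765 and 3840 nt in mesoderm, and 4406 and 4650 nt in ectoderm. Levels are given as CPM, the read count scaled to equal library totals. Fold changes come from an edgeR quasi-likelihood fit with TMM scaling, which centres the libraries on most genes, so they differ from ratios of CPM. Under TMM the median gene moved by -0.01, -0.13 and 0.01 (log2) from hPSC to ectoderm, endoderm and mesoderm, and with library totals alone it moved by 0.39, -0.46 and 0.24. The labels were checked against marker genes: the 7 pluripotency markers summed to 3514 and 3697 CPM in hPSC, 1317 to 1748 in ectoderm, 1726 to 2022 in endoderm and 335 to 355 in mesoderm. Single markers differed within these sums. In ectoderm LIN28A had a mean of 1079 CPM, while POU5F1, NANOG and TDGF1 had 10.4, 1.27 and 1.36 CPM. In endoderm NANOG and TDGF1 did not pass against hPSC (log2 -0.22 and -0.32), while POU5F1 fell (-2.26, edgeR adjusted p = 0.000627) and SOX2 was at 0. The hPSC libraries themselves differed in SOX2 (71 and 5 counts). The 6 endoderm markers summed to 2266 and 2380 CPM in endoderm, with none counted in hPSC. Most of this sum was CER1 (mean of 1839 CPM), and SOX17 differed between the endoderm libraries (150 and 16 counts). All 5 ectoderm markers were detected in ectoderm (791 and 1005 CPM), and 3 of them also in endoderm (416 and 422 CPM). The endoderm sum was almost all OTX2 (mean of 409 CPM), which did not pass in ectoderm against hPSC (log2 -0.06, edgeR adjusted p = 0.916). Of 6 mesoderm markers 4 were detected in mesoderm (1056 and 1149 CPM), while MIXL1 and FOXF1 were at 0 there. TBXT had 1 and 0 counts in the mesoderm libraries, and all 6 markers were detected in endoderm (111 and 169 CPM). Mesoderm also held 5473 and 5893 CPM of 6 amnion and trophoblast markers (19.6 to 73.7 CPM in the other groups) and 4022 and 4680 CPM of 3 fibroblast markers (145 to 1023 CPM elsewhere). Of the fibroblast markers, COL1A1 and COL1A2 rose in mesoderm (log2 3.76, edgeR adjusted p = 9.36e-07, and 2.41, 5.12e-05), while THY1, with a mean of 533 CPM in hPSC and 42.3 CPM in mesoderm, fell (-3.93, 5.45e-06). The part of these markers in the mesoderm results was not tested. Of 3 markers of blood and endothelium, PTPRC and PECAM1 were at 0 in every library. CDH5 had 5 and 3 counts in mesoderm, 1 and 1 in ectoderm, and none in hPSC or endoderm.

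DNMT3B RNA was highest in hPSC and lower in every layer. The hPSC libraries held 381 and 364 DNMT3B counts (734 and 648 CPM), the ectoderm libraries 241 and 189 (204 and 195 CPM), the endoderm libraries 52 and 43 (88.8 and 73.4 CPM) and the mesoderm libraries 32 and 26 (60.3 and 51.6 CPM). No layer's libraries reached the hPSC range. Against hPSC, DNMT3B fell 4.64-fold in ectoderm (log2 -2.21 ± 0.29 SE, n = 2 per group, edgeR adjusted p = 3.15e-05), 6.75-fold in endoderm (-2.76 ± 0.30, adjusted p = 1.1e-05) and 14.5-fold in mesoderm (-3.85 ± 0.32, adjusted p = 4.03e-07). Many genes passed the same test: of the 10843 genes tested, 48.7% were called in ectoderm (23.8% up and 24.8% down), 35.1% in mesoderm (16.9% up and 18.2% down) and 27.2% in endoderm (13.4% up and 13.8% down). The 3 falls of DNMT3B kept their direction and call under all 18 alternatives run for each, with log2 values from -2.88 to -1.61 in ectoderm, from -3.25 to -2.58 in endoderm and from -4.18 to -3.51 in mesoderm. In bulk samples, fewer cells with the gene on and less RNA per cell cannot be told apart. Among the layers, mesoderm was lower than endoderm (-1.10 ± 0.33, edgeR adjusted p = 0.0124) and ectoderm was above mesoderm (1.64 ± 0.31, adjusted p = 0.000857). The first of these was lost in 5 of 18 alternatives: full reference matches (-0.39, edgeR adjusted p = 0.408), library totals (-0.53, 0.126), the GC trend removed (-0.58, 0.157), and leaving out endoderm repeat 1 (-1.01, 0.0661) or mesoderm repeat 2 (-0.99, 0.0846). Ectoderm and endoderm, which are neighbours in the order, did not separate (0.54, 95% interval -0.09 to 1.17, edgeR adjusted p = 0.121), but 4 alternatives called that difference. It was 1.30 with library totals (edgeR adjusted p = 0.00083), 1.31 with the GC trend removed (0.00132), 0.59 with only the 2 groups fitted (0.0266) and 0.60 without hPSC repeat 2 (0.0266), while with the length trend removed it was -0.28 (0.429).

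**Figure D1:**
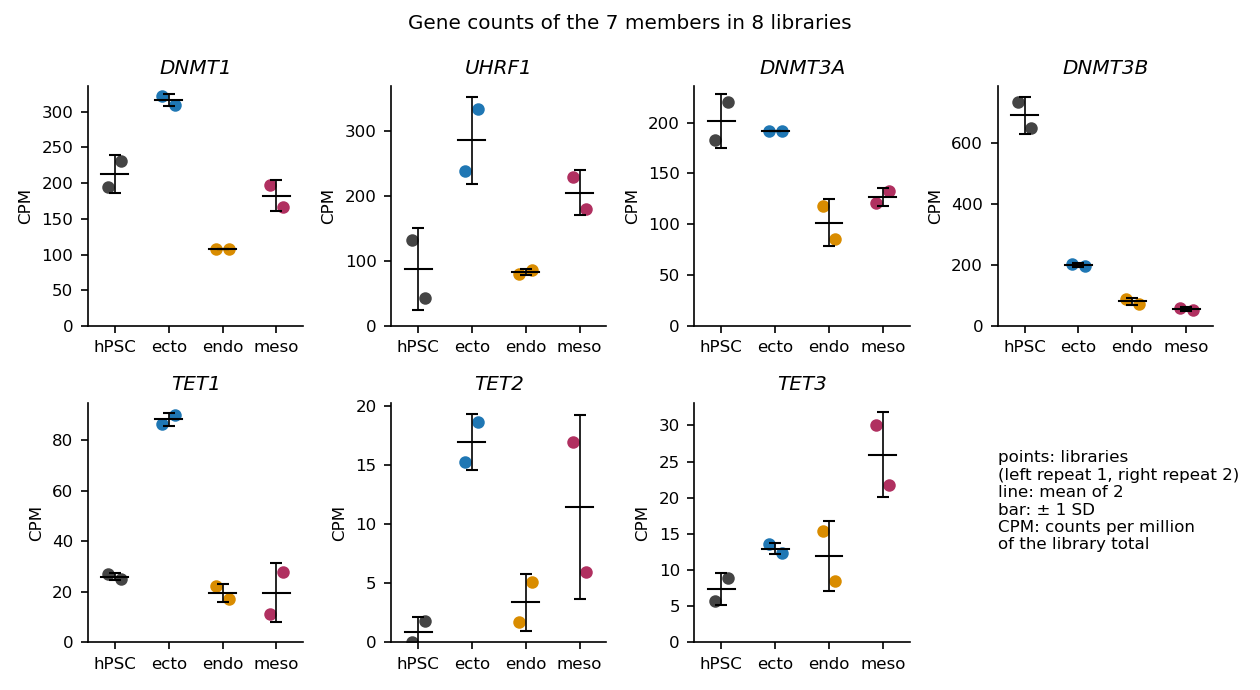
Level of each of the 7 genes in the 8 long-read libraries. Each point is 1 library (CPM on the y axis), horizontal lines mark the mean of the 2 libraries of a group with vertical bars of 1 SD, and each gene has its own panel and scale. The hPSC libraries lie above all others for DNMT3B (734 and 648 CPM), and the ectoderm libraries do so for TET1 (86.4 and 89.9 CPM).

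The full-length DNMT3B transcript fell in all 3 layers, and it made up a smaller part of the gene's counts in ectoderm and endoderm than in hPSC and mesoderm. The full-length transcript hEDT_00058197, which matches ENST00000328111.6, had 238 and 135 counts in hPSC, with 41 and 40 in ectoderm, 19 and 14 in mesoderm, and 8 and 3 in endoderm. It made up 50.1% of the pooled DNMT3B counts in hPSC, 18.8% in ectoderm, 56.9% in mesoderm, and 11.6% in endoderm. Its edgeR log2 change from hPSC was -3.40 ± 0.37 in ectoderm (adjusted p = 8.34e-06), -4.90 ± 0.46 in endoderm (adjusted p = 3.74e-06) and -3.52 ± 0.40 in mesoderm (adjusted p = 9.52e-06). The corresponding 21-exon transcript hEDT_00058198, which matches ENST00000696232.1 and lacks exons 21 and 22, had 26 and 7 counts in hPSC, with 21 and 30 in ectoderm, 3 and 3 in mesoderm, and 9 and 4 in endoderm. It did not pass the test in ectoderm (-0.56, 95% interval -1.67 to 0.56, edgeR adjusted p = 0.404) or endoderm (-1.17, -2.52 to 0.19, adjusted p = 0.191), and fell in mesoderm (-2.45 ± 0.74, adjusted p = 0.0183). These values rest on hPSC repeat 1, which held 26 of the 33 hPSC counts. Without it the ectoderm value turned to 0.57 and the mesoderm call was lost (-1.32, edgeR adjusted p = 0.218). Without hPSC repeat 2 the transcript fell in ectoderm (-1.21, edgeR adjusted p = 0.0226) and endoderm (-1.81, adjusted p = 0.0051). The mesoderm call was also lost without either mesoderm library (edgeR adjusted p = 0.093 and 0.0972) and with DESeq2's Wald test (adjusted p = 0.0932).

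Counted over every DNMT3B transcript that spans exons 20 to 23, the share without exons 21 and 22 was low in hPSC and mesoderm and higher in ectoderm and endoderm. It was 12.2% and 7.69% in the hPSC libraries (43 of 352 and 24 of 312 counts), 36.6% and 39.8% in ectoderm (53 of 145 and 51 of 128), 48.8% and 46.9% in endoderm (21 of 43 and 15 of 32), and 16% and 15.8% in mesoderm (4 of 25 and 3 of 19). The group means were 9.95% ± 3.2 in hPSC, 15.9% ± 0.149 in mesoderm, 38.2% ± 2.33 in ectoderm and 47.9% ± 1.39 in endoderm (SD, n = 2 each), and the ranges of no pair of groups overlapped. An exact permutation test over the 105 ways to divide 8 libraries into 4 pairs gave F = 147 and p = 0.00952, the smallest this design allows (adjusted p = 0.0238 over the 5 shares tested). With 2 libraries against 2, the exact test cannot compare a single pair of groups. Wilson 95% intervals, which cover counting error only, ran from 6.4% to 34.7% in mesoderm repeat 1 and from 5.52% to 37.6% in repeat 2, and so overlapped those of all hPSC libraries (5.22% to 16.1%). The adjusted p of the permutation test was 0.0952 without mesoderm repeat 1, without mesoderm repeat 2, and with full matches to reference transcripts only. Counting 1 further transcript with retained introns, hEDT_00060010, as holding the exons gave means of 9.51% in hPSC, 14.6% in mesoderm, 30.4% in ectoderm and 44.8% in endoderm (exact permutation p = 0.00952).

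**Figure D2:**
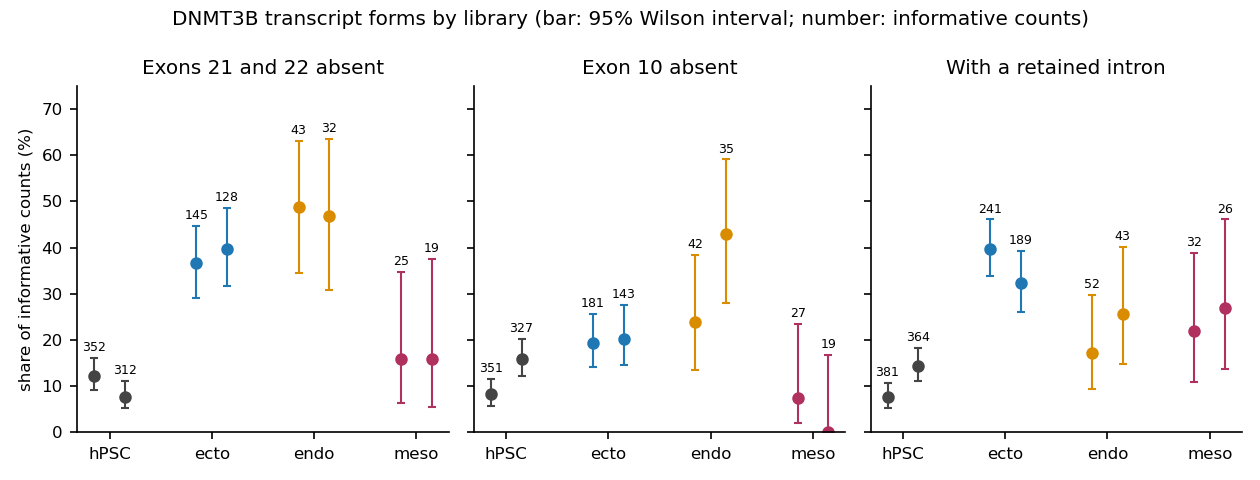
Share of DNMT3B counts that lack exons 21 and 22, lack exon 10, or retain an intron, in each library. Points are libraries, the y axis is the percent of the counts that can show the choice (their number is printed above each point), and vertical lines are Wilson 95% intervals for counting error. For exons 21 and 22 the ectoderm and endoderm libraries (36.6% to 48.8%) lie above the hPSC and mesoderm libraries (7.69% to 16%).

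Exon 10, which lies between the coding regions of the PWWP and ADD domains, was skipped in 8.26% and 15.9% of informative counts in hPSC (29 of 351 and 52 of 327), 19.3% and 20.3% in ectoderm (35 of 181 and 29 of 143), 7.41% and 0% in mesoderm (2 of 27 and 0 of 19), and 23.8% and 42.9% in endoderm (10 of 42 and 15 of 35). The zero of mesoderm repeat 2 has a Wilson 95% upper bound of 16.8%, and the endoderm repeats differed from each other more than the hPSC and ectoderm means did. The same exact permutation test gave F = 5.32 and p = 0.00952 (adjusted p = 0.0238). This call is less firm than that on exons 21 and 22: its adjusted p was 0.0714 with each group's own assembly, 0.254 with full matches only, and 0.119 to 0.286 without any library other than endoderm repeat 1. The transcript hEDT_00060011, which joins exon 9 to a longer exon 11 and so also lacks exon 10, is in none of these exon 10 shares. Counting it as skipped gave 102 of 699 pooled counts in hPSC, 87 of 347 in ectoderm, 28 of 80 in endoderm and 4 of 48 in mesoderm, with library means of 14.7%, 25%, 35.9% and 7.86% (exact permutation p = 0.00952).

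Both choices could be read on the same transcripts in 643 hPSC, 250 ectoderm, 72 endoderm and 42 mesoderm counts. Transcripts holding exon 10 as well as exons 21 and 22 made up 78.5% of these in hPSC, with 44.8% in ectoderm, 31.9% in endoderm and 81% in mesoderm. Those that kept exon 10 and lacked exons 21 and 22 made up 8.86%, 29.6%, 33.3% and 14.3% in the same order. The reverse, exon 10 skipped with exons 21 and 22 kept, made up 11%, 13.6%, 18.1% and 2.38%. Forms lacking all 3 exons were 1.56% of pooled counts in hPSC, with 12% in ectoderm, 16.7% in endoderm and 1 of 42 counts in mesoderm. These pooled shares are descriptions with no test.

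**Figure D3:**
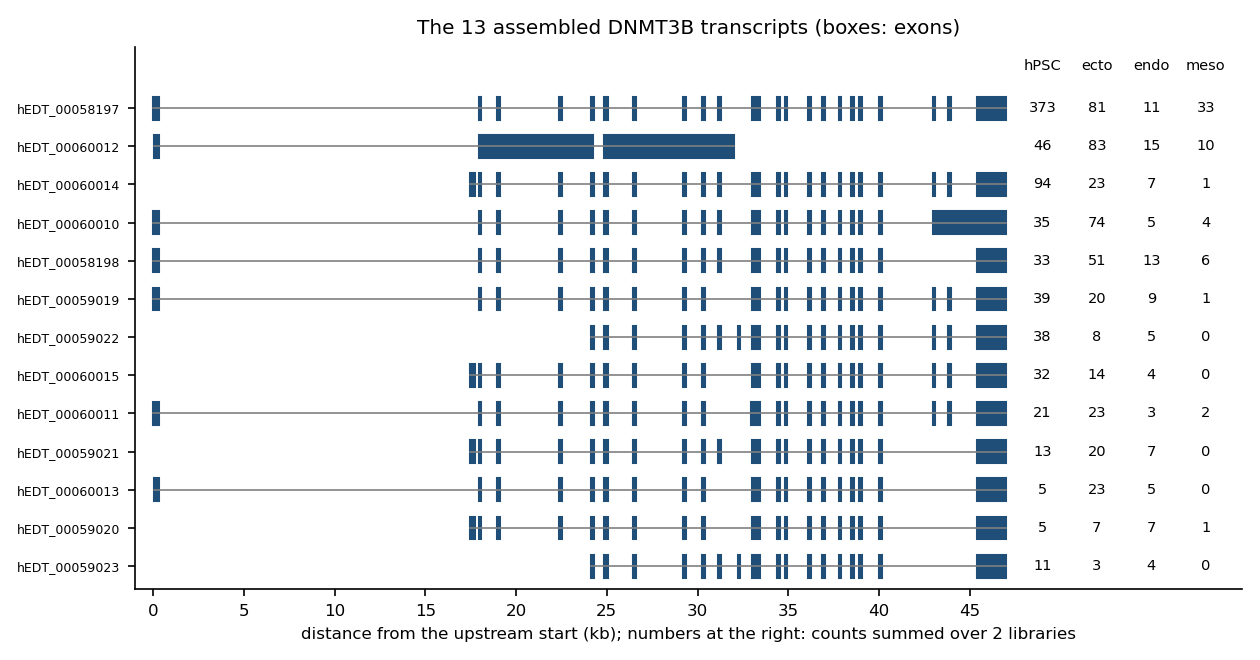
Exon models of the 13 DNMT3B transcripts with their counts per group. The left side draws each transcript from its start to its end (distance from the gene's start, in kb), with boxes for exons (the narrowest widened so that they can be seen), and the right side gives its counts summed over the 2 libraries of each group. The full-length transcript in the top row has 373 counts in hPSC and 11 in endoderm.

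The assembled DNMT3B transcripts began at 3 places. The upstream first exon (32762385 to 32762699) opened 84% and 63.7% of counts in the hPSC libraries, with 81.7% and 83.6% in ectoderm, 96.9% and 96.2% in mesoderm, and 65.4% and 62.8% in endoderm. An internal first exon (32779829 or 32779831 to 32780145) opened 11% and 28% in hPSC, with 16.2% and 13.2% in ectoderm, 26.9% and 25.6% in endoderm, and 1 count in each mesoderm library. The rest began further inside the gene, at 32786502. That is the first base of exon 5, so a true start and transcripts cut short at this end cannot be told apart there. The hPSC repeats differed in start use by more than the ectoderm and endoderm means did, so no order of groups was read from it. Skipping of exons 21 and 22 was seen in transcripts beginning at each place. From the upstream start it was 8.07% in hPSC, 37.4% in ectoderm, 14.3% in mesoderm and 43.9% in endoderm. Among internal-start counts it reached 12.5% in hPSC, 42.2% in ectoderm, 56% in endoderm and 1 of 2 in mesoderm. Exon 10 was skipped in 9.07% of upstream-start counts in hPSC, 17.3% in ectoderm, 2.27% in mesoderm and 32.6% in endoderm, and in 25.7% of internal-start counts in hPSC, 32.8% in ectoderm and 44% in endoderm. Counts that began at 32786502, which is exon 5, lacked exons 21 and 22 in 11 of 49 in hPSC (22.4%), 3 of 11 in ectoderm (27.3%) and 4 of 9 in endoderm (44.4%), and none of them skipped exon 10 (0 of 49, 0 of 11 and 0 of 9). All of them lie in the assembled transcripts hEDT_00059022 and hEDT_00059023, which both hold exon 10, so the zeros follow from those models. These pooled values carry no test.

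Transcripts with retained DNMT3B introns made up 7.61% and 14.3% of the gene's counts in hPSC, with 39.8% and 32.3% in ectoderm, 21.9% and 26.9% in mesoderm, and 17.3% and 25.6% in endoderm. The ectoderm libraries were above all others. Of these transcripts, hEDT_00060012 (13753 nt, from the first exon into the middle of the gene) had 20 and 26 counts in hPSC and 45 and 38 in ectoderm, and hEDT_00060010, which retains the introns between exons 21 and 23, had 9 and 26 in hPSC and 51 and 23 in ectoderm. Neither passed the edgeR test in ectoderm (log2 -0.37, adjusted p = 0.43, and -0.18, adjusted p = 0.789), while both fell in endoderm (-1.45, adjusted p = 0.029, and -2.62, adjusted p = 0.0169) and mesoderm (-2.22, adjusted p = 0.00284, and -3.12, adjusted p = 0.00597). The transcripts behind the reads were also longest in ectoderm (means of 4406 and 4650 nt against 3298 and 3114 nt in hPSC), and the part of length in these shares was not tested. A 69-base exon between exons 10 and 11 (32794591 to 32794659) was present in 5.9% and 10.9% of informative counts in hPSC, with 3.42% and 5.26% in ectoderm, 12.5% and 25% in endoderm, and 0 of 25 and 0 of 19 in mesoderm. The counts with this exon are the same counts that began at exon 5.

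In all, 21 of the 52 member transcripts had enough counts to test, and 9 of these belong to DNMT3B. All 9 fell in mesoderm, 8 of them fell in endoderm, where hEDT_00058198 did not pass, and 5 fell in ectoderm. The filter on low counts was passed by hEDT_00060014, hEDT_00059019, hEDT_00059022, hEDT_00060015 and hEDT_00060011 only through their hPSC counts. Their falls were therefore favoured by the filter, and the number of falling transcripts adds no support to the fall of the gene. The mesoderm call of hEDT_00058198 was lost without hPSC repeat 1, without either mesoderm library and with DESeq2's Wald test. Over all member transcripts 7 of 21 were called in ectoderm (5 lower), 10 in endoderm (10 lower) and 11 in mesoderm (10 lower). Among all transcripts tested, 45.9% were called in ectoderm (22.2% lower), 26.8% in endoderm (13.7% lower) and 32.8% in mesoderm (16.3% lower). The internal-start transcript hEDT_00060014 went from 23 and 71 counts in hPSC to 0 and 1 in mesoderm, a 90-fold ratio of pooled CPM with an exact counting interval of 15.8 to 3591. The 22-exon transcript hEDT_00059019, which lacks exon 10, went from 14 and 25 counts to 1 and 0, a ratio of 37.3 (6.32 to 1512). With 14 and 24 counts in hPSC, hEDT_00059022 had none in mesoderm and was at least 12.1-fold lower there, against a floor of 3 counts over the group. Of the transcripts that lack exons 21 and 22, hEDT_00060013 had 3 and 2 counts in hPSC, with 14 and 9 in ectoderm, 2 and 3 in endoderm and none in mesoderm. The internal-start form hEDT_00059021 had 7 and 6, 14 and 6, 5 and 2, and none. Another, hEDT_00059020, had 2 and 3 in hPSC, 3 and 4 in ectoderm, 1 in mesoderm, and 4 and 3 in endoderm, and these 3 had too few counts for the transcript test. The last of the larger transcripts, hEDT_00060011, had 10 and 11 counts in hPSC and 15 and 8 in ectoderm (edgeR log2 -1.09, adjusted p = 0.0918).

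Whether a gene's transcripts changed in proportion to each other was tested with edgeR's diffSpliceDGE. DNMT3B was called in ectoderm over 9 transcripts (adjusted p = 0.00043), and did not pass in endoderm (adjusted p = 0.0614) or mesoderm (adjusted p = 0.143). Several of these 9 passed the filter on low counts only through hPSC, as given above. The filter therefore favours a call of changed proportions against hPSC. The endoderm value was 0.00132 with a lower count minimum of 3, and the ectoderm value was 0.113 without ectoderm repeat 1 and 0.079 without repeat 2. Without hPSC repeat 1 the endoderm and mesoderm values were 0.00193 and 0.000539, and without hPSC repeat 2 the endoderm value was 0.000115. DNMT1, DNMT3A and UHRF1, the other members with several tested transcripts, were not called in any layer (adjusted p from 0.0872 to 0.969). Of all genes tested this way, 5.66% were called in ectoderm, 5.05% in endoderm and 7.02% in mesoderm.

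DNMT3A, the other de novo methyltransferase (chromosome 2, minus strand, 25228458 to 25342590), had 95 and 124 counts in hPSC, with 226 and 185 in ectoderm, 64 and 67 in mesoderm, and 69 and 50 in endoderm. Its levels were 183 and 221 CPM in hPSC, with 191 and 191 in ectoderm, 121 and 133 in mesoderm, and 118 and 85.3 in endoderm. The ectoderm libraries lay within the hPSC range and those of endoderm and mesoderm below it. DNMT3A fell in mesoderm by 0.93 on the log2 scale (SE 0.32, edgeR adjusted p = 0.0319), a call kept in 5 of 18 alternatives and lost without any library other than hPSC repeat 1 (edgeR adjusted p from 0.0529 to 0.19). It did not pass in ectoderm (-0.52, 95% interval -1.16 to 0.12, adjusted p = 0.16) or endoderm (-0.68, -1.35 to -0.01, adjusted p = 0.123), and no pair of layers was separated in it by the test. Without hPSC repeat 1, DNMT3A fell in ectoderm and endoderm (-0.82, edgeR adjusted p = 0.00914, and -0.95, adjusted p = 0.00894). Ectoderm was above endoderm with library totals (0.91, edgeR adjusted p = 0.00988) and with the GC trend removed (1.12, adjusted p = 0.00551), and the sign turned with the length trend removed (-0.32).

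Most DNMT3A reads came from the internal start that gives the shorter protein, which lacks the amino-terminal region of the long form. The full long-form transcripts are 8875 and 8734 nt and the short forms 3521 to 3628 nt. The part of length in the shares of reads was not tested. The upstream starts of the long form accounted for 18.3% and 14.5% of informative counts in hPSC, with 15% and 12.6% in ectoderm, 17.2% and 9.23% in mesoderm, and 8.82% and 12.2% in endoderm, and the groups were not separated by the test (exact permutation p = 0.486, adjusted p = 0.486). Long-form transcripts hEDT_00055222 and hEDT_00052778 together had 35 pooled counts in hPSC and 57 in ectoderm by that measure. The main short transcript, hEDT_00052781, had 35 and 51 counts in hPSC, with 115 and 91 in ectoderm, 34 and 33 in mesoderm, and 32 and 22 in endoderm, and was not called in any layer. A short form that starts slightly further downstream, hEDT_00052780 (first exon 25251912 to 25252132), had 20 and 19 counts in hPSC, with 28 and 31 in ectoderm, 11 and 5 in mesoderm, and 2 and 2 in endoderm. It fell in endoderm (log2 -3.07 ± 0.64, edgeR adjusted p = 0.00224) and mesoderm (-1.32 ± 0.49, adjusted p = 0.0481), and did not pass in ectoderm (-0.61, adjusted p = 0.235). It was 26.3% and 17.9% of short-form counts in hPSC and 3.23% and 4.65% in endoderm. Forms with an added 68-base second exon (25249657 to 25249724), which include hEDT_00052779 and hEDT_00055223, were 27.6% and 34% in hPSC, 45.2% and 44.2% in endoderm, 25.5% and 23.8% in ectoderm, and 15.1% and 35.6% in mesoderm. The mesoderm repeats spanned most of that range.

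The start regions are shown because both de novo genes used internal starts and these differ in CG content. The sequences are the 250 bases before each internal start as RefSeq places it on GRCh38.p14, written 5′ to 3′ with every CG in capitals. DNMT3A, at chr2:25252316-25252565 on the minus strand, holds 25 CG, and 78.4% of 35116 promoters of the same length hold fewer. Other DNMT3A internal starts, at 25252263 and 25252131, have windows with 22 and 15 CG (72% and 57.1% of promoters hold fewer). DNMT3B, at chr20:32779602-32779851 on the plus strand, holds 3 CG, and 22.9% of promoters hold fewer. The median is 11. The 4 assembled DNMT3B transcripts from this start begin 21 or 23 bases before the RefSeq start at 32779852, so the last bases of the DNMT3B window are also in those transcripts.
DNMT3A internal start: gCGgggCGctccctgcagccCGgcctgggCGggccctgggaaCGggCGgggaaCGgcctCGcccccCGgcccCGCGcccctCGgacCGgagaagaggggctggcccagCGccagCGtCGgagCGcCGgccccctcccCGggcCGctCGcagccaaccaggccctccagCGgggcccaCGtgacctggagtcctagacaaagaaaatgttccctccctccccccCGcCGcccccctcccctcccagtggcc
DNMT3B internal start: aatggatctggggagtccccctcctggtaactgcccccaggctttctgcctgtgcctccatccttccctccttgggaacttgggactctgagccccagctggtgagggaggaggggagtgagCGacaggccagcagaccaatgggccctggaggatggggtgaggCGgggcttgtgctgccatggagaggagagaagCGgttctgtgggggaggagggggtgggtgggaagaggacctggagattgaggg

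DNMT1, the maintenance methyltransferase (chromosome 19, minus strand, 10133342 to 10195109), did not pass the test in any layer against hPSC with all 8 libraries and TMM scaling. It had 101 and 130 counts in hPSC (194 and 231 CPM), 381 and 300 in ectoderm (323 and 310 CPM), 105 and 84 in mesoderm (198 and 167 CPM), and 63 and 63 in endoderm (108 and 107 CPM). The edgeR log2 change was 0.12 in ectoderm (95% interval -0.50 to 0.75, adjusted p = 0.751), -0.67 in endoderm (-1.33 to -0.01, adjusted p = 0.123) and -0.48 in mesoderm (-1.12 to 0.17, adjusted p = 0.236). Some alternatives did call DNMT1. Without hPSC repeat 1 it fell in endoderm (-0.94, edgeR adjusted p = 0.0104) and mesoderm (-0.76, adjusted p = 0.0241), and with the GC trend removed it rose in ectoderm (0.82, adjusted p = 0.0277) and fell in endoderm (-0.90, adjusted p = 0.0304). Scaled to library totals instead, the endoderm value was -0.98 (edgeR adjusted p = 0.0131), and that for DNMT3A was -0.99 (adjusted p = 0.0181). Ectoderm was above endoderm (0.79 ± 0.30, adjusted p = 0.0321), a call lost in 6 of 18 alternatives. It was lost without any 1 of these 4 libraries (edgeR adjusted p from 0.0508 to 0.103), and with the length trend removed the difference was 0.04 (adjusted p = 0.929). The remaining neighbours in the order of levels were not separated by the test, although mesoderm was above endoderm with library totals (0.76, edgeR adjusted p = 0.0261) and with the GC trend removed (0.81, adjusted p = 0.0373).

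The largest DNMT1 transcript, hEDT_00046343, held 41.1% of the gene's pooled counts in hPSC, 47.7% in ectoderm, 38.1% in mesoderm, and 34.9% in endoderm, and was not called in any layer. Its counterpart hEDT_00046341 carries an additional in-frame exon of 48 bases, or 16 codons, and fell in endoderm (log2 -1.45 ± 0.49, edgeR adjusted p = 0.0363). That exon was present in 23.6% and 16.8% of informative counts in hPSC, with 16.4% and 13.2% in ectoderm, 23.2% and 17.6% in mesoderm, and 13.7% and 10.9% in endoderm. The groups overlapped and were not separated by the test (exact permutation p = 0.181, adjusted p = 0.302). With each group's own assembly the test passed (adjusted p = 0.0238), and the hPSC share minus the mean of the layers turned from 4.37 to -1.72 percentage points. The smaller transcripts hEDT_00049366, hEDT_00050859, hEDT_00049367 and hEDT_00050858 each held 3.46% to 12.7% of the gene's counts in a group, and none of the 3 that had enough counts for the test was called. DNMT1 transcripts with a retained intron were 8.91% and 6.92% in hPSC, with 11% and 9.33% in ectoderm, 7.62% and 14.3% in mesoderm, and 14.3% and 14.3% in endoderm.

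UHRF1, which recognises half-methylated DNA and recruits DNMT1 (chromosome 19, plus strand, 4909430 to 4962154), rose in ectoderm and mesoderm. Its counts were 69 and 24 in hPSC (133 and 42.7 CPM), 282 and 323 in ectoderm (239 and 334 CPM), 122 and 91 in mesoderm (230 and 181 CPM), and 47 and 51 in endoderm (80.3 and 87 CPM). The hPSC repeats lay on either side of both endoderm libraries, and all ectoderm and mesoderm libraries were above both. UHRF1 rose 2.53-fold in ectoderm (log2 1.34 ± 0.38, edgeR adjusted p = 0.00832) and 2.07-fold in mesoderm (1.05 ± 0.38, adjusted p = 0.0432), and did not pass in endoderm (0.33, 95% interval -0.51 to 1.17, adjusted p = 0.584). The ectoderm call was kept in 16 of 18 alternatives, and was lost without ectoderm repeat 2 (edgeR adjusted p = 0.0654). The mesoderm call was kept in 8 of 18, and was lost without any library other than hPSC repeat 1 (adjusted p from 0.0607 to 0.217). The size of all 3 changes hung on the hPSC repeats, whose counts differ: without repeat 2 they were 0.90 in ectoderm, 0.55 in mesoderm and -0.17 in endoderm. Without repeat 1 they were 2.13, 1.85 and 1.14, and the endoderm value then passed (edgeR adjusted p = 0.0237). Ectoderm was above endoderm (1.01 ± 0.37, adjusted p = 0.0272; 0.0988 to 0.151 without ectoderm repeat 2 or either endoderm library), and ectoderm and mesoderm were not separated by the test (0.29, adjusted p = 0.561). With the length trend removed, ectoderm against endoderm was 0.64 (edgeR adjusted p = 0.132).

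Both UHRF1 transcripts have 17 exons and differ in the first. The main transcript hEDT_00044829, from the first exon at 4909430 to 4909655, rose in ectoderm (log2 1.65 ± 0.37, edgeR adjusted p = 0.00203) and mesoderm (1.47 ± 0.38, adjusted p = 0.00695). The other, hEDT_00044830, from the exon at 4910146 to 4910246, was not called in any layer. Its share of UHRF1 counts was 37.7% and 16.7% in hPSC, with 23.8% and 26.3% in ectoderm, 13.1% and 19.8% in mesoderm, and 12.8% and 15.7% in endoderm (exact permutation p = 0.362, adjusted p = 0.452). The same test passed with each group's own assembly and without hPSC repeat 2 (adjusted p = 0.0476 in each), where the hPSC share was 27.2 and 19.1 percentage points above the mean of the layers, against 8.6 with all libraries.

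DNMT1 and UHRF1 RNA is known to follow S phase, so 14 proliferation genes are given beside them. Of these, 4 rose and 4 fell in ectoderm, 6 fell in endoderm with none higher, and 2 rose and 7 fell in mesoderm. Their median log2 changes were -0.17, -0.88 and -0.95 (-0.01, -0.13 and 0.01 over all genes). Over all genes tested, 23.8% rose and 24.8% fell in ectoderm. The same shares were 13.4% and 13.8% in endoderm, and 16.9% and 18.2% in mesoderm. TOP2A, a topoisomerase of dividing cells, rose in ectoderm (log2 3.57, edgeR adjusted p = 7.89e-07) and mesoderm (1.28, adjusted p = 0.00469) and fell in endoderm (-1.76, adjusted p = 0.00305). MKI67, a marker of cycling cells, rose in ectoderm (2.68, adjusted p = 5.08e-05). MCM3, part of the replicative helicase, fell in endoderm (-2.02, adjusted p = 0.000629) and mesoderm (-1.18, adjusted p = 0.0142) and did not pass in ectoderm (-0.62, adjusted p = 0.135). In ectoderm CDK1 and BUB1 also rose (1.43 and 1.22, edgeR adjusted p = 0.00272 in each). Those that fell there were MCM5 (-1.86, edgeR adjusted p = 0.000503), MCM7 (-1.43, 0.00201), RRM2 (-1.31, 0.00244) and CCNB1 (-1.22, 0.0129). No listed MCM gene, TYMS or RRM2 was called higher in any layer against hPSC. The part of cell cycle in the DNMT1 and UHRF1 values was not tested.

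**Figure D4:**
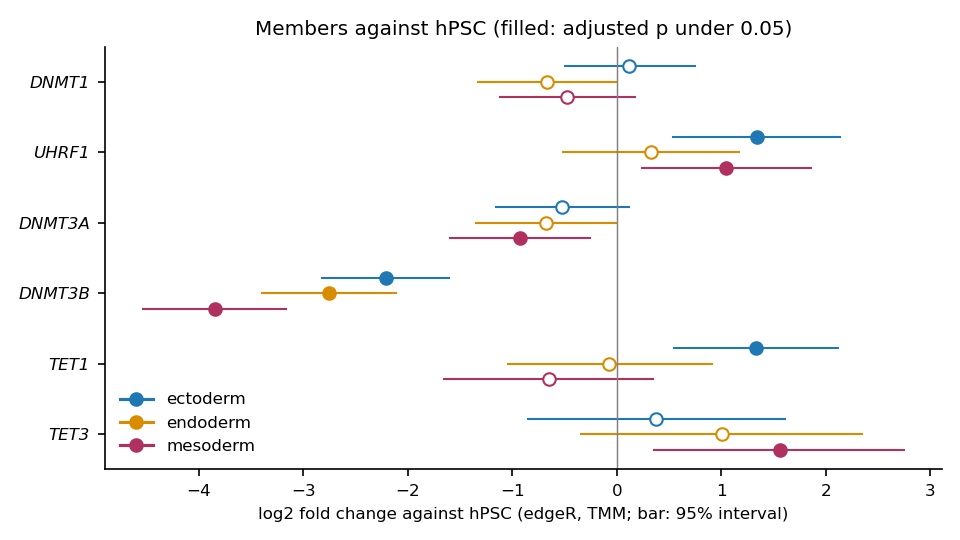
Log2 fold change against hPSC of the 6 members that could be tested, in each layer. Points are edgeR estimates with TMM scaling, horizontal lines are 95% intervals, filled points passed an adjusted p of 0.05 and open points did not. DNMT3B lies at -2.21, -2.76 and -3.85 in ectoderm, endoderm and mesoderm.

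TET1, a dioxygenase expressed in pluripotent cells (chromosome 10, plus strand, 68560292 to 68694487), was highest in ectoderm. It had 14 and 14 counts in hPSC (27 and 24.9 CPM), 102 and 87 in ectoderm (86.4 and 89.9 CPM), 6 and 14 in mesoderm (11.3 and 27.8 CPM), and 13 and 10 in endoderm (22.2 and 17.1 CPM). The ectoderm libraries were above all others and the other 3 groups were not separated by the test. TET1 rose 2.52-fold in ectoderm against hPSC (log2 1.33 ± 0.37, edgeR adjusted p = 0.00799), and ectoderm was above endoderm (1.40 ± 0.39, adjusted p = 0.00514) and mesoderm (1.98 ± 0.39, adjusted p = 0.00117). The call against hPSC was kept in 14 of 17 alternatives. It was lost with DESeq2's Wald test (1.39, adjusted p = 0.0594) and with the length and GC trends removed. TET1 transcripts are long, with a mean of 8254 nt over its 7 transcripts, and ectoderm reads came from the longest transcripts on average. With a trend on transcript length removed, the ectoderm change was 0.35 (edgeR adjusted p = 0.481), and with a trend on GC content removed it was 0.37 (adjusted p = 0.445). Ectoderm against endoderm was 0.20 (edgeR adjusted p = 0.676) and -0.01 (adjusted p = 0.985) under the same settings, so that call was lost in both. Mesoderm against endoderm then passed (-1.25, edgeR adjusted p = 0.0457, and -1.47, adjusted p = 0.0218). Ectoderm against mesoderm kept its call in all 17 alternatives, from 1.45 to 2.81.

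The near full-length TET1 transcript hEDT_00009761 (9744 nt) had 2 and 5 counts in hPSC, with 33 and 39 in ectoderm, 1 and 0 in mesoderm, and 3 and 2 in endoderm, and rose in ectoderm (log2 2.12 ± 0.57, edgeR adjusted p = 0.00694). That transcript passed the filter on low counts only through ectoderm, which favours a rise there. The 2-exon transcript hEDT_00009760, which ends early in the gene, had 6 and 3, 15 and 8, 4 and 4, and 6 and 1 counts in the same order. The others (hEDT_00012386, hEDT_00011520, hEDT_00012383, hEDT_00012385 and hEDT_00012384) had 13 to 40 counts each over the 8 libraries. Reads that reach the last exon were 42.9% and 64.3% of TET1 counts in hPSC, with 71.6% and 74.7% in ectoderm, 33.3% and 50% in mesoderm, and 53.8% and 60% in endoderm. An exon of 87 bases (68673401 to 68673487) was present in 118 of 138 informative counts in ectoderm and 14 of 15 in hPSC, with too few counts elsewhere to compare (10 of 13 in endoderm, 8 of 9 in mesoderm).

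TET2 (chromosome 4, plus strand, 105146650 to 105279803) was near the limit of detection. The hPSC libraries held 0 and 1 counts, ectoderm 18 and 18, endoderm 1 and 3, and mesoderm 9 and 3. This did not pass the filter on low counts, so no test was made. Pooled CPM in ectoderm was 18.1 times that in hPSC (exact counting interval 3.05 to 735), in mesoderm 12.5 times (1.86 to 536) and in endoderm 3.69 times (0.365 to 182), and in ectoderm 4.91 times that in endoderm (1.76 to 19). These intervals cover counting error only. The 11-exon transcript hEDT_00072616 had 8 and 8 counts in ectoderm and 3 and 1 in mesoderm, hEDT_00071750 had 4 and 4, and 3 and 2, and hEDT_00072615 had 5 and 3, and 2 and 0. None of the 3 had a read in hPSC.

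TET3 (chromosome 2, plus strand, 73983822 to 74108176), the TET enzyme known from the oocyte and from neural cells, had 3 and 5 counts in hPSC (5.78 and 8.9 CPM), 16 and 12 in ectoderm (13.5 and 12.4 CPM), 16 and 11 in mesoderm (30.1 and 21.8 CPM), and 9 and 5 in endoderm (15.4 and 8.53 CPM). The mesoderm libraries were above all others, and TET3 passed the filter on low counts only through them. It was therefore tested because of the group where it is high, which favours a call of higher in mesoderm. TET3 rose 2.95-fold in mesoderm (log2 1.56 ± 0.56, edgeR adjusted p = 0.0418) and was lower in ectoderm than in mesoderm (-1.18 ± 0.44, adjusted p = 0.0478), but these calls were kept in 6 and 4 of 17 alternatives. The first was lost without either mesoderm library (edgeR adjusted p = 0.197 and 0.0746), either ectoderm library (0.0618 and 0.0606) or hPSC repeat 1 (0.2), and the second without any library of ectoderm, mesoderm or endoderm (0.0746 to 0.36). The rise in mesoderm against hPSC was also lost with the length trend removed (1.12, edgeR adjusted p = 0.15) and with DESeq2's Wald test (adjusted p = 0.212). TET3 did not pass in ectoderm (0.38, 95% interval -0.85 to 1.61) or endoderm (1.01, -0.34 to 2.35). Of its transcripts, hEDT_00056017 (11886 nt) had 13 pooled counts in ectoderm and 6 in mesoderm, and hEDT_00051984, hEDT_00056019 and hEDT_00054718 had 10 to 14 counts each over all libraries.

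Set side by side, 3 of the 6 members tested were called in ectoderm (UHRF1 and TET1 higher, DNMT3B lower), 1 in endoderm (DNMT3B) and 4 in mesoderm (UHRF1 and TET3 higher, DNMT3A and DNMT3B lower). These comparisons share the hPSC libraries. Their median log2 change was 0.25 in ectoderm, -0.37 in endoderm and -0.56 in mesoderm, where all tested genes gave -0.01, -0.13 and 0.01. Between layers, 3 members were higher in ectoderm than endoderm (DNMT1, UHRF1 and TET1, where 63% of all genes were called), 3 differed between ectoderm and mesoderm (DNMT3B and TET1 higher in ectoderm, TET3 lower, where 35.5% of all genes were called), and 1 differed between mesoderm and endoderm (DNMT3B, where 47.1% were called). Against these backgrounds, counts of 1 to 4 among 6 members say nothing particular about the members as a group. DNMT3B and TET1 in ectoderm against mesoderm were the layer differences kept under every alternative run (18 and 17).

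Genes that work with the members were taken as 5 lists with 41 genes, of which 35 could be tested. Against hPSC, 12 were higher and 9 lower in ectoderm, 4 higher and 9 lower in endoderm, and 5 higher and 5 lower in mesoderm, with median log2 changes of -0.05, -0.25 and -0.17 (-0.01, -0.13 and 0.01 over all genes). Of all genes tested, 23.8% rose and 24.8% fell in ectoderm. In mesoderm 16.9% rose and 18.2% fell, and for endoderm the shares were 13.4% and 13.8%. The counts of each list below stand against the same shares. With library totals in place of TMM the splits were 14 higher and 6 lower, 2 and 12, and 9 and 4. With the length trend removed they were 8 and 9, 5 and 8, and 4 and 8, and with the GC trend removed 8 and 7, 2 and 6, and 6 and 7.

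Of 7 tested maintenance partners, 2 were higher and 3 lower in ectoderm, 4 lower in endoderm with none higher, and 1 higher and 2 lower in mesoderm. CDCA7L, a relative of the chromatin remodelling cofactor CDCA7, had 195 and 306 counts in hPSC, with 126 and 130 in ectoderm, 52 and 48 in mesoderm, and 7 and 7 in endoderm, so every layer's libraries lay below hPSC in CPM. It fell in ectoderm (log2 -2.40, edgeR adjusted p = 5.42e-05), endoderm (-4.95, adjusted p = 1.41e-06) and mesoderm (-2.52, adjusted p = 5.08e-05). CDCA7, which activates the remodeller HELLS, fell in ectoderm (-1.41, adjusted p = 0.00126) and endoderm (-2.07, adjusted p = 0.000507) and did not pass in mesoderm (-0.58, adjusted p = 0.149). UHRF2, the UHRF1 paralog, had 5 and 3 counts in hPSC and 45 and 41 in ectoderm, and rose in ectoderm (1.99, adjusted p = 0.0024) and mesoderm (1.46, adjusted p = 0.0427). UHRF2 passed the filter on low counts only through these layers, which favours its rises. DPPA3, an inhibitor of UHRF1, had 2 counts in all 8 libraries.

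Among the de novo partners, 3 of 4 tested were higher in ectoderm, none was called in endoderm, and 1 was higher in mesoderm. QSER1, which guards DNA against de novo methylation, had 4 and 6 counts in hPSC and 74 and 80 in ectoderm and rose there (log2 2.52, edgeR adjusted p = 0.000637). SETD2, which makes the H3K36 trimethylation read by the PWWP domain of DNMT3 enzymes, rose in ectoderm (2.50, adjusted p = 0.000274) and mesoderm (1.86, adjusted p = 0.00637). QSER1 passed the filter on low counts only through ectoderm, and SETD2 only through ectoderm and mesoderm, which favours these rises. NSD2, an H3K36 dimethyltransferase, rose in ectoderm (1.04, adjusted p = 0.0108). DNMT3L, the DNMT3 cofactor that has no catalytic activity, had 0 counts in every library, which allows up to 2.77 CPM in hPSC and 1.4 CPM in ectoderm.

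The 10 tested genes of removal and TET partners gave 4 higher and 3 lower in ectoderm, 2 higher and 2 lower in endoderm, and 1 lower in mesoderm. TDG, the glycosylase that takes out oxidised methylcytosine, had 11 and 19 counts in hPSC, with 126 and 129 in ectoderm, 35 and 34 in mesoderm, and 38 and 28 in endoderm, and it rose in ectoderm (log2 1.67, edgeR adjusted p = 0.00158) and endoderm (1.34, adjusted p = 0.0189), with 1.01 (adjusted p = 0.0535) in mesoderm. IDH1, which makes the alpha-ketoglutarate that TET enzymes use, fell in ectoderm (-1.50, adjusted p = 0.00195) and mesoderm (-2.29, adjusted p = 0.000138) and rose in endoderm (1.49, adjusted p = 0.00372). GADD45A, a stress gene linked to demethylation by repair, went from 2 and 0 counts in hPSC to 28 and 17 in ectoderm. The ratio of pooled CPM was 11.3 (exact counting interval 2.96 to 96.4), and the edgeR log2 change was 2.96 (adjusted p = 0.00828). GADD45A passed the filter on low counts only through ectoderm, which favours a rise there.

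Readers of methylated DNA gave 2 higher of 6 tested in ectoderm, 1 in endoderm and 2 in mesoderm, with none lower. The 2 called in ectoderm, ZBTB33 and ZBTB38, passed the filter on low counts only through ectoderm, which favours a rise there. ZBTB33, also called Kaiso, had 2 and 0 counts in hPSC, with 53 and 68 in ectoderm and 6 and 12 in mesoderm. Its pooled ratios were 30.5 (8.25 to 254) and 9.4 (2.25 to 83.6), and its edgeR log2 changes 4.41 (adjusted p = 0.000173) and 2.90 (adjusted p = 0.0223). Its relative ZBTB38 went from 1 and 0 to 21 and 18 in ectoderm, a ratio of 19.6 (3.32 to 795), with an edgeR log2 change of 3.66 (adjusted p = 0.00368). ZBTB4 rose in mesoderm (log2 1.43, edgeR adjusted p = 0.0336). In methyl donor supply, 1 of 8 was higher and 3 lower in ectoderm, 1 higher and 3 lower in endoderm, and 1 higher and 2 lower in mesoderm. AHCY, which clears the inhibitory product of methyl transfer, fell in ectoderm (-2.76, adjusted p = 3.31e-05) and mesoderm (-1.92, adjusted p = 0.000647) with a value of 0.04 in endoderm. SHMT2, a mitochondrial enzyme of one-carbon metabolism, fell in the same layers (-2.59, adjusted p = 6.05e-05, and -1.77, adjusted p = 0.00144) with -0.07 in endoderm.

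**Figure D5:**
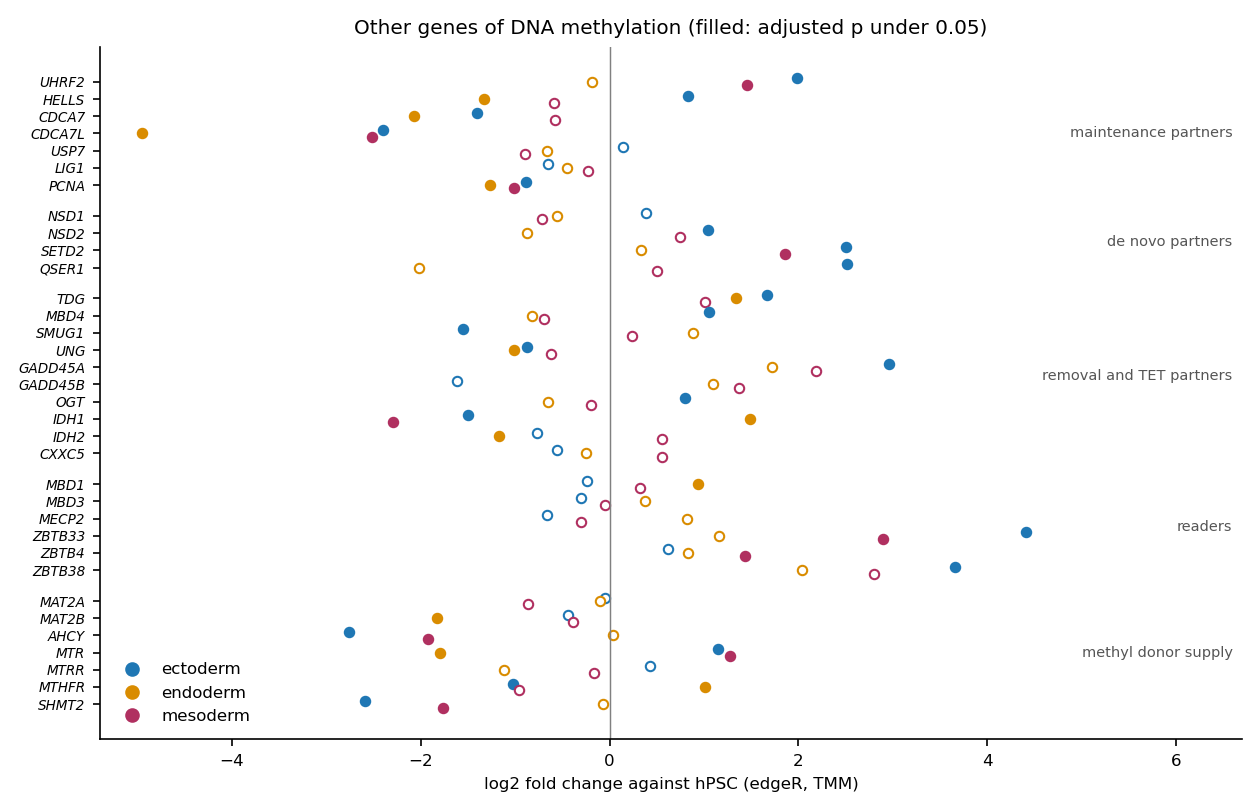
Log2 fold change against hPSC of the tested genes of the 5 lists of DNA methylation partners, by layer. Each point is 1 gene's edgeR estimate, filled where the adjusted p was under 0.05, with 1 row per gene and the genes grouped by list (1 tested gene is not drawn). CDCA7L in endoderm (-4.95) lies farthest to the left.

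Genes whose levels followed a member most closely over the 8 libraries were found by Pearson's r of log2 CPM, as a description in which all points share library, depth and group. For DNMT3B these were LINC00678 (0.995) and DPPA4 (0.992), and for DNMT3A RIMS4 (0.974), SEH1L (0.969) and PCID2 (0.962). For DNMT1 they were ABLIM1 (0.98), MORN4 (0.974) and MKKS (0.974), and for UHRF1 LRRFIP2 (0.979) and SLF2 (0.975). TET1 was followed by SLC25A53 (0.979), PCDHB12 (0.979) and IMPA1 (0.978), and TET3 by SLC27A6 (0.973), PTPN14 (0.961) and TMEM94 (0.961). DPPA4, 1 of the 7 pluripotency markers, is among these.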

How the data were processed

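Whole-transcript reads were measured in 8 libraries, 2 per group. Per the submitters' processing notes, reads were aligned with minimap2 and assembled with StringTie on GRCh38 (hg38). Versions, the counter, its treatment of reads that map to several places and its use of strand are not given in the sources used here. The authors deposited a table of read counts per assembled transcript and a combined annotation. For endoderm the deposited values carry the unit label of expected counts here, although they are whole raw counts like the rest and nothing was rounded. Deposited CPM files were not used. The members, lists and tests were chosen with earlier results of these data known.

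Transcript counts were summed per gene name. Genes passing filterByExpr (minimum count 10) entered 1 edgeR 4.0.16 quasi-likelihood fit (R 4.3.3) of all 8 libraries with TMM scaling, and Benjamini-Hochberg adjusted p under 0.05 was called. The same fit on transcripts and diffSpliceDGE gave transcript changes and choice. Form shares were tested by exact permutation of F over the 8 libraries (two-sided by construction). Standard errors are the log2 change over the root of the F statistic. Library totals ran from 503840 to 1180888, so 3 counts are worth 2.54 to 5.95 CPM. The fits were tested on simulated data. Alternatives were DESeq2 1.42.0 and its size factors, no filter, full reference matches, only the compared groups, a replicate block, trends on length and GC, and leaving out each library. From each list the 3 called genes with the largest change are named, plus DNMT3L, DPPA3 and TDG, and member transcripts with at least 5% of the gene's counts in a group and 10 counts in all. Some genes and a sequence that these rules select are not reported here.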

Additional observations from a re-analysis of the deposited data

Results flagged for a closer look

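Some member genes differed between layers in the direct edgeR test of one layer against another. Ectoderm was above endoderm for DNMT1 (log2 0.79), UHRF1 (1.01) and TET1 (1.40), but with the length trend removed these were 0.04, 0.64 and 0.20 and none passed (edgeR adjusted p = 0.929, 0.132 and 0.676). Ectoderm was above mesoderm for DNMT3B (1.64) and TET1 (1.98), and below it for TET3 (-1.18), which passed the filter on low counts only through mesoderm. Mesoderm was below endoderm for DNMT3B (-1.10), a call lost in 5 of 18 alternatives. Reads in transcripts that lie inside member introns, which the gene counts leave out, were also present: hEDT_00012387 in an intron of TET1 (chromosome 10, 68585817 to 68589864) had 11 counts, and hEDT_00051983 in an intron of TET3 (chromosome 2, 74003652 to 74011894) had 23 counts, spread over all 4 groups in each case.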

How the results depend on the processing

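The falls of DNMT3B gene counts in each layer, and DNMT3B and TET1 in ectoderm against mesoderm, kept direction and call in every alternative run. Library totals, the GC trend and the counting of the retained-intron and extended exon 11 transcripts were chosen after seeing the data.

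With the length trend removed, the sign turned for DNMT1 in ectoderm (-0.49), TET3 in ectoderm (-0.61), TET1 in endoderm (0.14), DNMT3A and DNMT3B in ectoderm against endoderm (-0.32 and -0.28), and DNMT1 and TET3 in mesoderm against endoderm (-0.26 and -0.12). With the GC trend removed it turned for DNMT3A in ectoderm (0.20), TET1 in endoderm (0.38), TET1 in ectoderm against endoderm (-0.01) and DNMT3A in mesoderm against endoderm (0.39). With library totals it turned for UHRF1 in endoderm (-0.06), TET3 in ectoderm against endoderm (0.12) and DNMT3A in mesoderm against endoderm (0.32). The cause was not tested. Leaving out 1 library gave ranges that cross 0 for DNMT1 in ectoderm (-0.16 to 0.50), TET3 in ectoderm (-0.06 to 0.95), UHRF1 in endoderm (-0.17 to 1.14), TET1 in endoderm (-0.17 to 0.16) and hEDT_00058198 in ectoderm (-1.21 to 0.57).

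Members called in endoderm were 3 (GC), 3 (library totals) and 1 to 4 with 1 library out, against 1. In mesoderm they were 1 (DESeq2's Wald test), 2 (length), 2 (full matches), 1 (only the 2 groups) and 1 to 4, against 4. In ectoderm against endoderm they were 1 (length), 5 (library totals), 5 (only the 2 groups) and 1 to 4, against 3, and in ectoderm against mesoderm 1 (full matches) and 2 to 4, against 3. In mesoderm against endoderm they were 3 (GC), 2 (length), 2 (library totals), 0 (full matches), 2 (only the 2 groups) and 0 to 2, against 1. Ectoderm members ranged from 2 to 4 with 1 library out.

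Partner genes called were 21, 13 and 10 in ectoderm, endoderm and mesoderm, and 12, 6 and 5 with DESeq2's Wald test, with 8 in endoderm under GC and 8 with only the 2 groups. Without 1 library they ranged from 12 to 21, 6 to 15 and 5 to 17. Proliferation genes called were 10 in endoderm with library totals, against 6, and 5 in mesoderm with only the 2 groups, against 9, and ranged from 5 to 10, 3 to 8 and 2 to 12 without 1 library. Transcripts called were 4 in ectoderm and 3 in endoderm with DESeq2's Wald test, against 7 and 10, and 6 to 9, 4 to 12 and 6 to 13 without 1 library. Transcript choice called 1 member in endoderm at a minimum count of 3, and 0 to 1, 0 to 2 and 0 to 1 without 1 library.

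The hPSC share minus the mean of the layers, in percentage points, was -24 for exons 21 and 22, -22.7 with full matches and -26.3 to -21.8 without 1 library. For exon 10 it was -6.87, -15.3 with own assemblies, -8.19 with full matches and -10.7 to -3.05 without 1 library. The DNMT1 exon gave -1.72 with own assemblies, against 4.37, and the second UHRF1 first exon 27.2 with own assemblies, against 8.6, and -1.9 to 19.1 without 1 library. Both passed the test with own assemblies, and the UHRF1 share also without hPSC repeat 2.

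The differences between repeat 1 and repeat 2 correlated little between groups (r from -0.0345 to 0.151). Low values cannot show whether the repeat numbers pair the samples, because pairing with little shared deviation would look the same, and the labels do not say. With a replicate block 3, 1 and 3 members were called in ectoderm, endoderm and mesoderm, TET3 in mesoderm being the call lost. Low counts limit TET2, TET3 and the mesoderm DNMT3B shares.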
